A study of Mus musculus with 9 samples.

Results

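The genes described here encode the enamel proteinases MMP20 and KLK4, the acid phosphatase ACP4, the secretory pathway proteins FAM20A and FAM20C, and the intracellular proteins FAM83H and WDR72. They were taken from the table by gene symbol, 7 of 54532 genes, and all 7 passed the filter on low counts that left 15909 genes for testing. RNA was sequenced from first-molar enamel organs of 9 male mice at postnatal day 12 (P12), with 1 library per mouse. The 5 ELA mice were reared from P2 to P12 in cages with limited nesting and bedding, a model of early life adversity, and the 4 control mice were not. Mice of both groups were Crh-IRES-Cre; Ai14 tdTomato offspring of Crh-IRES-Cre +/+ dams on a C57Bl6 background, so the Cre driver and the tdTomato reporter were shared by ELA and control mice. Body weight at collection was 5.3 ± 0.4 g in the ELA group and 5.9 ± 0.4 g in the control group according to the sample labels.

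Tooth enamel is made by ameloblasts, epithelial cells that first secrete a protein matrix of amelogenin, ameloblastin and enamelin and later, in the maturation stage, remove that matrix while crystals thicken. MMP20 (enamelysin) is a metalloproteinase that cleaves the matrix proteins mainly in the secretory stage, and KLK4 is a serine proteinase that degrades what is left of them in the maturation stage. In people, loss of function of MMP20, KLK4, ACP4, FAM20A or WDR72, and truncation of FAM83H, cause amelogenesis imperfecta, an inherited defect of enamel, and loss of FAM20C causes Raine syndrome, in which bone and enamel are affected.

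The promoters of the proteinases are shown because these 2 genes are set against the substrate transcripts below. The sequences are the 250 bases before the annotated start from RefSeq (GRCm38.p6), which held an entry for 5 of the 7 genes. They lie on the plus strand at chr9:7627981-7628230 for Mmp20 and at chr7:43880910-43881159 for Klk4. The RefSeq start can differ from the gene spans given below. The Fam20c window lies within its gene span, and those of Acp4 and Fam20a lie partly within theirs. Capitals mark matches to the motifs searched.
Mmp20: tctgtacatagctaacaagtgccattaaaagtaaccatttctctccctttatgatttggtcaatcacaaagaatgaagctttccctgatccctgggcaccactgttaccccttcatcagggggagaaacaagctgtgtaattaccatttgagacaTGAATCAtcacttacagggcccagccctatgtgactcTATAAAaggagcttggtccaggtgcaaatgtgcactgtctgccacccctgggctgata
Klk4: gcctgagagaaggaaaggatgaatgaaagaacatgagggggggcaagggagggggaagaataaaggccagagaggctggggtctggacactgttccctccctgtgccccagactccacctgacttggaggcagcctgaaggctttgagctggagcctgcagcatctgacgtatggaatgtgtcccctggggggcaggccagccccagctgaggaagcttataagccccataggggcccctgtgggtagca
Motifs were searched on both strands of the 250 bases before the start. The Mmp20 promoter held the TATA box letters (TATAAA) from 58 bases before the start. It held a match to the AP-1 letters searched (TGANTCA) from 95 bases before it. The N stood for any base and was A here. Of 32851 mouse promoters of the same length, 12.4% held the TATA letters and 6.75% the AP-1 letters. The promoters of Klk4, Acp4, Fam20a and Fam20c held no match to either set of letters. None of the 5 promoters held the letters searched for RUNX (TGTGGT, in 14% of promoters). Nor did any hold those searched for DLX and MSX homeodomain proteins (TAATTG, in 7.17%). Only these letters were searched, and near forms were not counted. Among such forms are TAATTA in the Mmp20 sequence and TATAAG in that of Klk4. The lack of a match therefore does not show that a promoter lacks a TATA box or a homeodomain site. A match is a run of letters and was not tested as a binding site.

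None of the 7 genes passed the test between ELA and control mice. In the edgeR fit across all genes, 0 of the 7 passed an adjusted p of 0.05, where 0.0629% of all genes tested did, and the lowest adjusted p among them was 0.876. At an unadjusted p of 0.05 the count was also 0, against 6.44% of all genes, and 0 of the 7 had values that did not overlap between the groups, against 2.68% of all genes. DESeq2 and limma-voom, used as alternatives, also called 0 of the 7. The log2 fold changes were positive in 4 genes and negative in 3, with a median of 0.00083, and the median of all genes tested was 0.013. In whole tissue, fewer cells of a type and less RNA per cell cannot be told apart. The p-values measure the spread between these 9 mice, taken as independent. The study names separate litters within each group for its qPCR mice and names none for the sequenced ones. The ELA mice had titles that begin t-203 or t-205 and the control mice c-202 or c-204, the labels do not say what these numbers stand for, and title number and group cannot be told apart.

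Library totals were 18056774 to 32110160 counts in ELA and 18683431 to 20831736 counts in control mice. The 7 genes had between 656 and 76723 counts in each library, so that counting error was at most 3.90% and the spread between mice set the precision. Of 8 dental epithelial markers, 7 were present in every library (Krt14, a basal keratin, averaged 5115 CPM in ELA organs and 6490 CPM in control organs), and Cldn7 was at or near 0. ELA replicate 4 stood apart with a summed neuron marker level of 585.1 CPM, against 53.3 to 100.8 CPM in the other 8 libraries.

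**Figure D1:**
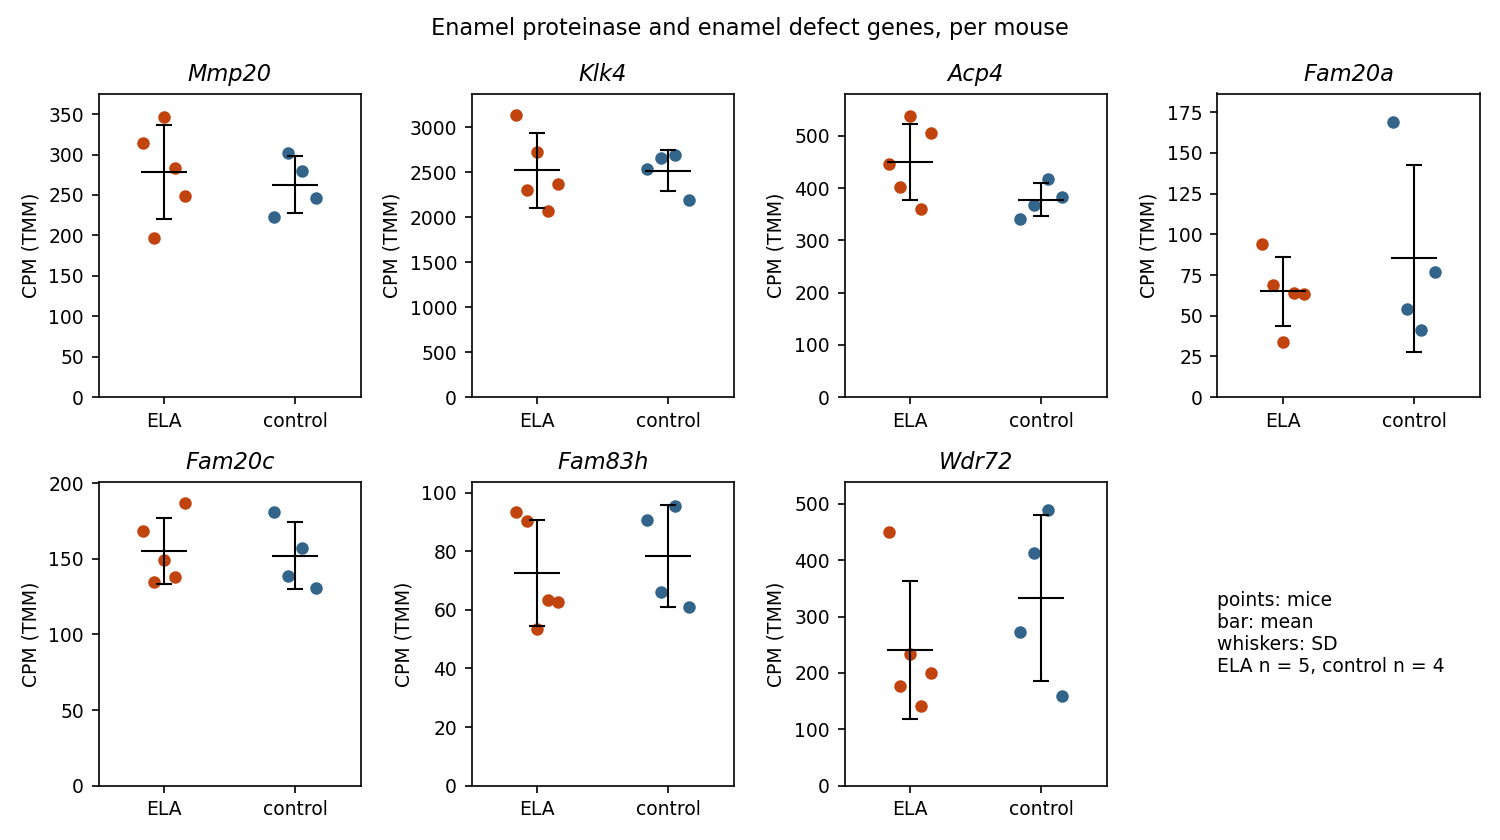
Normalised level of each gene in read counts scaled to the library size (CPM, linear axis from 0) in 5 ELA mice (left of each panel) and 4 control mice (right). Points are mice, the horizontal bar is the mean and whiskers are 1 SD; the groups overlapped in all 7 panels, and the single high Fam20a point is a control mouse at 168.8 CPM.

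Mmp20 (GRCm38 chromosome 9, 7628231 to 7674979, plus strand), the proteinase of the secretory stage, had 313.9, 196.9, 346.7, 283.0 and 248.9 CPM in ELA mice, against 222.8, 302.2, 280.0 and 246.0 CPM in control mice. Values are CPM, counts scaled to TMM library sizes, listed here and below for ELA replicates 1 to 5 and control replicates 1 to 4. Both the highest and the lowest mouse were ELA, and the control values lay between them. The means were 277.9 ± 58.0 CPM in ELA organs and 262.7 ± 35.3 CPM in control organs (SD, n = 5 and 4). The log2 fold change was 0.08 (SE 0.17), with a 95% interval of 0.813-fold to 1.38-fold (edgeR adjusted p = 0.999).

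Klk4 (chromosome 7, 43881160 to 43885804, plus strand), the proteinase of the maturation stage, had 3130, 2301, 2725, 2068 and 2370 CPM in ELA mice, against 2533, 2657, 2690 and 2190 CPM in control mice. As for Mmp20, the ELA mice spanned the control range on both sides. The means were 2519 ± 415 CPM in ELA organs and 2517 ± 229 CPM in control organs, a log2 fold change of 0.00083 (SE 0.16). The 95% interval ran from 0.789-fold to 1.27-fold (edgeR adjusted p = 0.999).

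Acp4 (chromosome 7, 44252148 to 44257378, minus strand) encodes a membrane-bound acid phosphatase also known from testis. It had 446.2, 402.9, 538.4, 360.4 and 506.0 CPM in ELA mice, against 341.7, 368.0, 417.9 and 383.3 CPM in control mice. Values of 4 of the 5 ELA mice were above the control median, 3 of them above every control mouse, and ELA replicates 2 and 4 lay within the control range. The mean was 450.8 ± 72.8 CPM in ELA organs and 377.7 ± 31.8 CPM in control organs, with a log2 fold change of 0.26 (SE 0.15) and an interval of 0.954-fold to 1.49-fold. Acp4 had the smallest unadjusted edgeR p of the 7 genes (0.111), rank 2007 among the 15909 genes, with an adjusted p of 0.876.

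Fam20c (chromosome 5, 138754514 to 138810077, plus strand) encodes the Golgi kinase that phosphorylates secreted proteins, the enamel matrix proteins among them. Its level was 168.3, 135.0, 149.4, 137.9 and 186.6 CPM in ELA mice, against 180.8, 138.6, 157.5 and 131.0 CPM in control mice. These values formed the narrowest range of the 7 genes, with the highest mouse 1.42 times the lowest. ELA mice averaged 155.5 ± 21.8 CPM and control mice 152.0 ± 22.2 CPM, a log2 fold change of 0.03 (SE 0.14) with an interval of 0.821-fold to 1.27-fold (edgeR adjusted p = 0.999).

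Fam20a (chromosome 11, 109669749 to 109722279, minus strand) encodes a pseudokinase that binds FAM20C and raises its activity. It had 93.9, 69.0, 34.1, 64.1 and 63.5 CPM in ELA mice, against 168.8, 54.0, 41.4 and 76.7 CPM in control mice. Control replicate 1 was the highest of the 9 and 4.95 times the lowest mouse, ELA replicate 3. The log2 fold change was -0.39 (SE 0.40), with an interval of 0.414-fold to 1.40-fold (edgeR adjusted p = 0.991). Without control replicate 1 it was 0.18, so the direction rested on that mouse.

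Fam83h (chromosome 15, 76001093 to 76014336, minus strand) encodes a protein that binds casein kinase 1 and keratin filaments. It had 93.5, 90.2, 53.4, 63.5 and 62.6 CPM in ELA mice, against 90.7, 66.2, 95.5 and 60.8 CPM in control mice. The 2 ELA mice titled t-205 (replicates 1 and 2) were at 90.2 and 93.5 CPM, and the 3 titled t-203 were at 53.4 to 63.5 CPM. In each pair of control mice that share a title number, 1 was near the higher and 1 near the lower of these levels. The log2 fold change was -0.11 (SE 0.20), with an interval of 0.686-fold to 1.25-fold (edgeR adjusted p = 0.999), and it was 0.23 without the mice titled t-203, a setting chosen after seeing the data.

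Wdr72 (chromosome 9, 74110356 to 74283308, plus strand) encodes a protein of vesicle traffic in maturation-stage ameloblasts. It had 450.6, 176.0, 233.9, 141.5 and 199.7 CPM in ELA mice, against 271.9, 412.7, 489.5 and 158.8 CPM in control mice. The value of ELA replicate 1 was near the highest control and the other 4 ELA mice were lower than 3 of the 4 control mice. The means were 240.3 ± 122 CPM in ELA organs and 333.2 ± 147 CPM in control organs. The log2 fold change was -0.47 (SE 0.38), with an interval of 0.404-fold to 1.29-fold (edgeR adjusted p = 0.962), and it was -0.82 without ELA replicate 1 and -0.23 without control replicate 3.

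**Figure D2:**
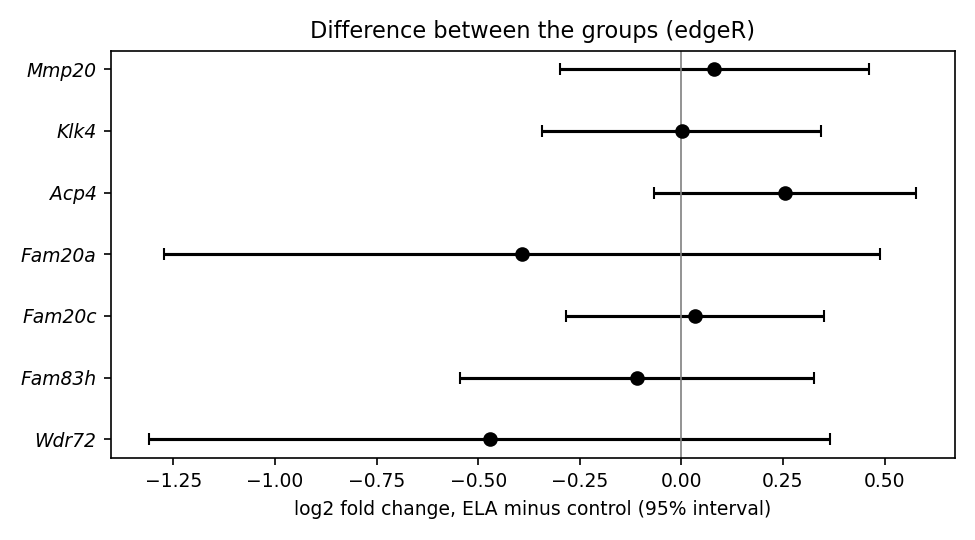
Log2 fold change of ELA minus control for the 7 genes (points) with 95% intervals (bars) from the edgeR fit. All 7 intervals include 0; those of Fam20a (-1.27 to 0.49) and Wdr72 (-1.31 to 0.37) are the widest and that of Fam20c (-0.28 to 0.35) is among the narrowest.

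The library scaling turned the direction of 2 genes, both close to 0. With counts scaled to library totals alone, Klk4 was at -0.066 and Fam20c at -0.028. Relative to Rpl19, a ribosomal protein gene (557.3 ± 72.8 CPM in ELA organs and 575.0 ± 102 CPM in control organs), and relative to the epithelial markers, all 7 genes kept the sign they had with TMM, with Acp4 at 0.28 and 0.30 and Wdr72 at -0.43 and -0.41 (two-sided exact permutation p 0.159 to 0.857 over the 7 genes and both scalings).

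Levels of different genes were compared as CPM per kilobase of the deposited gene length. Klk4 was the highest, with 2017 ± 332 in ELA organs and 2015 ± 183 in control organs, and it ranked 18 among the 15909 genes. Acp4 followed with 257.7 ± 41.6 in ELA organs and 216.0 ± 18.2 in control organs (rank 128), and Mmp20 had 84.5 ± 17.7 in ELA organs and 79.9 ± 10.7 in control organs (rank 478). The gaps between these 3 were far wider than the spread between mice.
Wdr72 came next at 32.1 ± 16.3 in ELA organs and 44.5 ± 19.6 in control organs (rank 1152). Fam20c was at 23.6 ± 3.31 in ELA organs and 23.1 ± 3.37 in control organs, Fam20a at 17.9 ± 5.85 in ELA organs and 23.5 ± 15.9 in control organs, and Fam83h at 15.7 ± 3.89 in ELA organs and 16.9 ± 3.74 in control organs. Between Wdr72, Fam20c, Fam20a and Fam83h the neighbours in this order overlapped within the spread between mice.

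The genes differed in how much they varied between mice of the same group. The pooled SD of log2 CPM within groups was 0.70 for Fam20a and 0.67 for Wdr72, which placed them at percentiles 97.9 and 97.4 of the 9781 genes with a mean of at least 10 CPM. It was 0.20 for Klk4, Acp4 and Fam20c (percentiles 31.4 to 33.9), 0.27 for Mmp20 and 0.34 for Fam83h, where the median gene had 0.25. The intervals of Fam20a and Wdr72 therefore cover changes of over 2-fold downward that those of the other 5 genes do not.

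**Figure D3:**
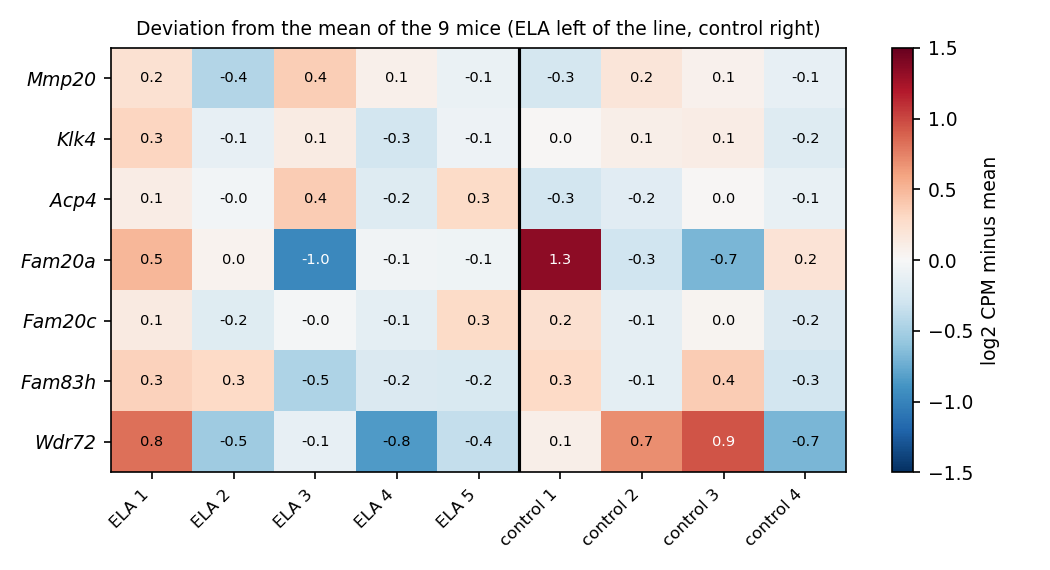
Log2 CPM of each gene (rows) in each mouse (columns, ELA left of the line and control right), as the difference from the mean of the 9 mice, with red above and blue below the mean. Fam20a and Wdr72 carry the strongest colours in both groups, with Fam20a highest in control 1 and lowest in ELA 3.

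Across the 9 mice, Klk4 and Wdr72 varied together. Pearson's r of log2 CPM was 0.87 (two-sided exact permutation p = 0.00216, 0.0453 after Benjamini-Hochberg adjustment over 21 pairs) and Spearman's rho was 0.87 (exact p = 0.00451, adjusted 0.0947), so the rank measure did not pass. With deviations from each group's mean, r was 0.92 (exact p = 0.000347, the smallest these permutations can give, adjusted 0.00729). Without the 2 libraries farthest from the median of Klk4 (ELA replicates 1 and 4) r was 0.81, and without ELA replicate 4 alone it was 0.83.
ELA replicate 1 and control replicates 2 and 3 had 2657 to 3130 CPM of Klk4 and 412.7 to 489.5 CPM of Wdr72, and ELA replicate 4 was lowest for both. ELA replicate 3 was the exception, with the next highest Klk4 after ELA replicate 1 (2725 CPM) and 233.9 CPM of Wdr72. The summed level of the maturation-stage markers followed a similar order, with the highest sum (41222 CPM) in ELA replicate 1 and the lowest (23851 CPM) in ELA replicate 4, and its part in the relation was not tested.

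**Figure D4:**
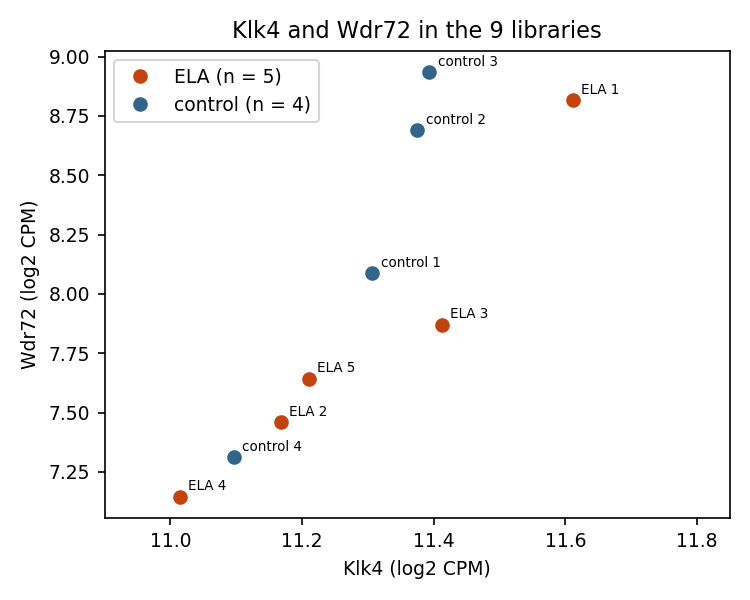
Log2 CPM of Wdr72 against log2 CPM of Klk4, 1 point per mouse, ELA in orange and control in blue. Higher Klk4 goes with higher Wdr72 (r = 0.87 over 9 mice), and ELA and control points are intermixed.

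No other pair passed. Over the 21 pairs r was positive in 14 and negative in 7, with a median of 0.35. The 2 proteinases had r = 0.53 (exact p = 0.141, adjusted 0.51). FAM20A and FAM20C act as a complex, and their transcripts had r = 0.37 (exact p = 0.34, adjusted 0.51). Fam20a was the gene that most often ran against others, with r = -0.56 to Acp4 and -0.54 to Mmp20 (adjusted 0.51 each), neither past the threshold.

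For each gene the 3 genes most like it over the 9 libraries were named by Pearson's r of log2 CPM among 14408 genes with a mean of at least 1 CPM, as a description only, since the best of so many is high in any set of 9 libraries. Mmp20 was most like Fam214a (0.95), Zfp385b (0.94) and Nudt4 (0.93). Klk4 was most like Atp6ap2 (0.98), an accessory subunit of the vacuolar proton pump, Syap1 (0.97) and Rab3gap1 (0.94). The nearest genes to Acp4 were Cmtm7 (0.96), Mdh2 (0.95), the mitochondrial malate dehydrogenase, and Hibadh (0.95).
For Fam20a they were Slc18b1 (0.97), Jade2 (0.97) and Nfatc2 (0.96), and for Fam20c they were Lactb (0.93), Plekhh1 (0.88) and Rbm12b1 (0.88). Fam83h was nearest to Elmsan1 (0.95), Fto (0.95) and AI661453 (0.94). Wdr72 was nearest to Gpr176 (0.99), Dapk1 (0.98) and Stxbp6 (0.98).

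Ratios within a mouse do not depend on the library scaling, and 4 were compared. Klk4 to Mmp20, the later against the earlier proteinase, was 24.4 ± 4.60 in ELA organs and 25.4 ± 3.13 in control organs (log2 difference -0.07, two-sided exact permutation p = 0.651). Fam20a to Fam20c was 0.762 ± 0.244 in ELA organs and 0.984 ± 0.530 in control organs (-0.28, exact p = 0.556). Neither balance between partners differed beyond the spread between mice.

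The balance between the proteinases and the transcripts of their substrates did differ. The summed CPM per kilobase of Amelx, Ambn and Enam, which encode amelogenin, ameloblastin and enamelin, stood to Mmp20 at 676.5, 737.9, 785.0, 711.5 and 855.2 in ELA mice, against 499.8, 406.5, 430.8 and 404.6 in control mice. Every ELA mouse was above every control mouse. The log2 difference was 0.79, a fold of 1.73 (two-sided exact permutation p = 0.0159, the smallest that 126 splits can give, 0.0317 adjusted over the 4 ratios).
To Klk4 the same sum stood at 25.8, 24.0, 38.0, 37.0 and 34.1 in ELA mice, against 16.7, 17.6, 17.0 and 17.3 in control mice. The control mice lay within a range of 16.7 to 17.6, and the ELA mice were all higher, those titled t-203 at 34.1 to 38.0 and those titled t-205 at 24.0 and 25.8. The log2 difference was 0.86, a fold of 1.82 (exact p = 0.0159, adjusted 0.0317), and without the mice titled t-203 it was 0.54.

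**Figure D5:**
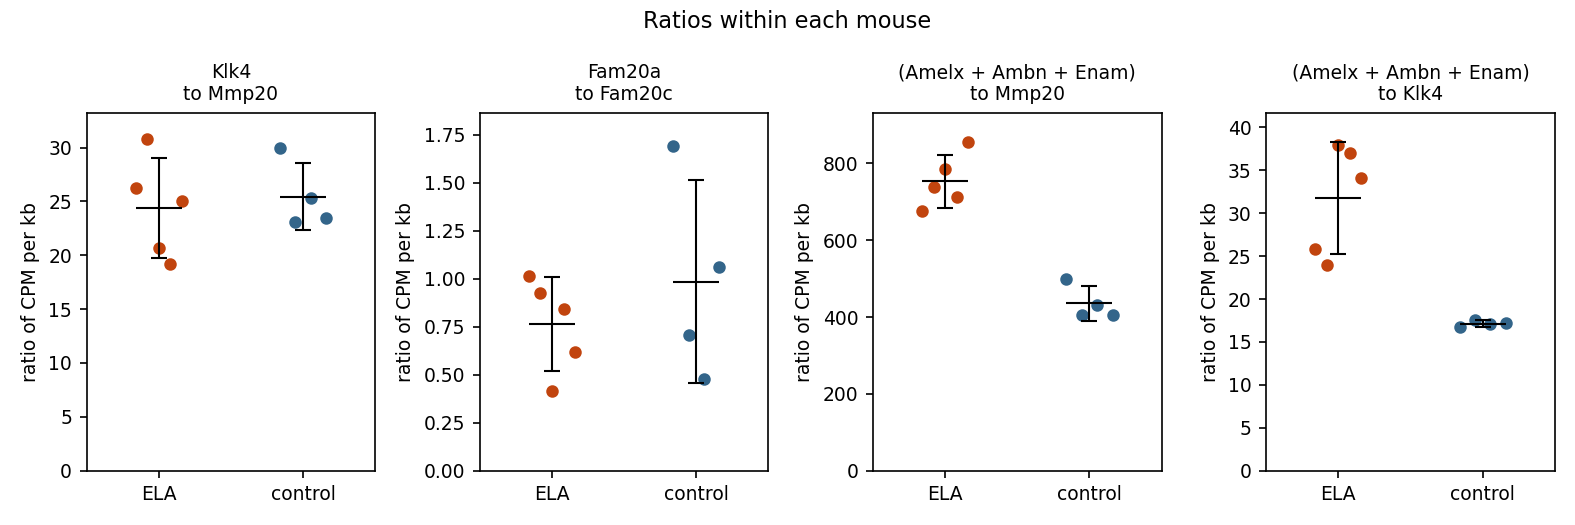
Ratios of CPM per kilobase within each mouse (points, linear axes from 0) in 5 ELA mice (left) and 4 control mice (right), with mean and SD. The first 2 panels overlap between groups, and in the last 2 every ELA mouse is above every control mouse.

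Mmp20 and Klk4 themselves had log2 fold changes of 0.08 and 0.00083, and higher substrate transcripts in these ELA libraries were known when the ratios were chosen, so the ratios are no independent evidence of that direction. Amelx was 25815 ± 7113 CPM per kilobase in ELA organs and 8737 ± 533 in control organs, Ambn 37278 ± 6902 in ELA organs and 25807 ± 3269 in control organs, and Enam 436.9 ± 358 in ELA organs and 11.1 ± 1.90 in control organs. With Ambn alone as the substrate, an alternative chosen after seeing the data, the log2 difference was 0.46 to Mmp20 and 0.53 to Klk4 (exact p = 0.0159 each). Of 6 secretory-stage markers, 3 are these substrates and made up 96.5% to 99.4% of the marker sum in ELA organs and 95.3% to 98.7% in control organs, so that sum is no separate measure. The other 3 (Dspp, Sp6 and Vwde) summed to 400.3 to 3662 CPM in ELA organs and 796.4 to 2744 CPM in control organs, which overlapped. Dspp is also on the list of odontoblast markers, so this sum is not one of ameloblasts alone, and the part of odontoblasts in it was not tested. All 12 dental mesenchyme and fibroblast markers had negative fold changes, where 52.6% of all genes tested had positive ones. Of these 12 markers, 0 passed the adjusted p and 7 were lower at an unadjusted p below 0.05 (6.44% of all genes tested in either direction). Their sums overlapped between the groups (12492 to 24075 CPM in ELA organs and 16305 to 31713 CPM in control organs), and their part in the ratios was not tested.

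Other genes of the same roles were read from lists of known genes. Of 12 activators and inhibitors of the proteinases, 11 were tested and 0 passed the adjusted p, with 4 positive and 7 negative fold changes (median -0.11) and 4 at an unadjusted p below 0.05 (6.44% of all genes tested), all lower in ELA. Ctsc encodes dipeptidyl peptidase I, which can activate the KLK4 precursor. It had 57.5 ± 12.8 CPM in ELA organs and 98.6 ± 22.1 CPM in control organs (log2 fold change -0.78, edgeR adjusted p = 0.264).
Timp1, an inhibitor of metalloproteinases, had 41.4 ± 8.61 CPM in ELA organs and 70.2 ± 5.98 CPM in control organs (-0.76, edgeR adjusted p = 0.154). Reck, a membrane-bound inhibitor, was at -0.57 (adjusted p = 0.400) and Timp2 at -0.54 (adjusted p = 0.480). Values of Ctsc, Timp1 and Reck did not overlap between the groups, as for 2.68% of all genes, and in DESeq2 Timp1 (adjusted p = 0.00823) and Ctsc (0.0349) passed. Markers of several other cell types also had mostly negative fold changes, with 0 past the adjusted p in any of these lists. Besides the 12 mesenchyme markers these were 7 of 7 leukocyte markers tested (median -0.50, sums of 95.2 to 150.4 CPM in ELA organs and 116.1 to 180.1 CPM in control organs), 5 of 5 erythroid (median -0.99, 157.9 to 376.6 CPM in ELA organs and 362.7 to 857.4 CPM in control organs) and 6 of 6 osteoclast markers (median -0.59, 186.3 to 673.7 CPM in ELA organs and 401.9 to 689.8 CPM in control organs). The same held for 5 of 5 odontoblast markers (median -0.36, 620.6 to 4122 CPM in ELA organs and 1001 to 3158 CPM in control organs) and 7 of 8 osteoblast markers (median -0.32, 991.0 to 2152 CPM in ELA organs and 1679 to 2462 CPM in control organs). At an unadjusted p below 0.05, 4 leukocyte, 3 erythroid, 2 osteoclast, 1 odontoblast and 2 osteoblast markers were lower in ELA. Of all genes tested, 6.44% passed that level in either direction. At that level 3 secretory-stage, 1 maturation-stage, 1 stratum intermedium and 3 neuron markers were higher, and 1 maturation-stage marker was lower. Lists with mostly positive fold changes were secretory-stage ameloblast (5 of 6, median 0.46) and maturation-stage ameloblast (7 of 9, median 0.30). So were stratum intermedium and papillary layer (4 of 5, median 0.04), neuron (5 of 5) and skeletal muscle (3 of 4). Dental epithelial (4 of 7) and endothelial (3 of 5) markers were mixed. The part of these cell types in these values was not tested. Nor was it tested in those of Acp5 and Ibsp below, which are themselves on the osteoclast and osteoblast lists.

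Of 12 other kallikreins only 2 were tested, Klk8 (0.09) and Klk10 (0.12), both with means under 5 CPM (edgeR adjusted p = 0.999 each, 0 at an unadjusted p below 0.05). Both differed in sign in limma-voom, at -0.12 and -0.73. Klk4 was the most abundant of the 3 kallikreins tested.

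Of 8 phosphatases other than Acp4, 6 were tested, 2 positive and 4 negative, and 0 passed (median -0.07, with 2 at an unadjusted p below 0.05, both higher, where 6.44% of all genes passed in either direction). Alpl, the tissue-nonspecific alkaline phosphatase of mineralizing tissue, had 1651 ± 118 CPM in ELA organs and 1322 ± 72.5 CPM in control organs (log2 fold change 0.32, edgeR adjusted p = 0.666), and Acpp, prostatic acid phosphatase, was at 0.44 (adjusted p = 0.535). Values of Alpl and Acpp did not overlap between the groups, as for 2.68% of all genes. Alpl is itself on the list of stratum intermedium and papillary layer markers. The sum of that list, Alpl included, was 1730 to 2083 CPM in ELA organs and 1481 to 1678 CPM in control organs. The part of these cells in the level of Alpl was not tested. Acp5, the tartrate-resistant phosphatase of osteoclasts, was at -0.61 (adjusted p = 0.880) and the lysosomal Acp2 at -0.12 (adjusted p = 0.989).

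Of 8 kinases of the secretory pathway related to FAM20C, 4 were tested and 0 passed, with 0 at an unadjusted p below 0.05. Fam20b, a xylose kinase of proteoglycan synthesis, was at 0.12, Fjx1 at -0.18, Pkdcc, a secreted tyrosine kinase, at -0.15, and Pomk, a kinase of dystroglycan glycosylation, at -0.02 (edgeR adjusted p = 0.999 each). Of 11 secreted substrates of FAM20C, 10 were tested, 5 positive and 5 negative (median 0.14). Only Amelx passed in edgeR (log2 fold change 1.56, adjusted p = 0.0477), where 0.0629% of all genes tested passed. At an unadjusted edgeR p below 0.05, 3 were higher and 3 lower (6.44% of all genes tested in either direction).
Enam was at 5.30 (adjusted p = 0.0570), Ambn at 0.53 (adjusted p = 0.579) and Ibsp, bone sialoprotein, at -0.92 (adjusted p = 0.229). Ibsp passed in DESeq2 (adjusted p = 0.0112). Enam passed in DESeq2 (adjusted p = 4.35e-10), in limma-voom (0.0372) and in edgeR without ELA replicate 2 (0.00619), and its adjusted p was 0.809 with counts summed over title numbers. Amelx also passed in DESeq2 (adjusted p = 3.33e-10) and in limma-voom (0.0492), and its adjusted p was 0.188 with counts summed over title numbers. The call for Amelx was kept in 1 of the 9 fits that each left out a mouse (without ELA replicate 2, adjusted p = 0.00619), and in the other 8 the adjusted p was 0.0543 to 0.274, with a log2 fold change of 1.43 to 1.60.

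Of 13 genes of the FAM83 family and of casein kinase 1, the kinase that FAM83H binds, 11 were tested, 7 positive and 4 negative, and 0 passed (median 0.03, 0 at an unadjusted p below 0.05). Csnk1g1 was at 0.31, Csnk1e at 0.18, Csnk1g2 at 0.06 and Fam83b at -0.20 (edgeR adjusted p = 0.888 to 0.999). WDR72 resembles WDR7, a partner of the rabconnectin-3 proteins in assembly of the vacuolar proton pump. All 4 genes of that group were positive and 0 passed (0 at an unadjusted p below 0.05), with Rogdi at 0.37, Dmxl2 at 0.29, Wdr7 at 0.24 and Dmxl1 at 0.11 (adjusted p = 0.830 to 0.999), whereas Wdr72 was at -0.47. Without ELA replicate 4, the library high in neuron markers, Dmxl2 was at 0.021, Wdr7 at 0.098, Dmxl1 at 0.049 and Rogdi at 0.32. Csnk1g1 was at 0.18 without that library. The genes named from the lists of kallikreins, phosphatases, secretory pathway kinases, FAM83 and casein kinase 1, and rabconnectin-3 did not pass in DESeq2 or limma-voom either.

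Of 26 further genes of amelogenesis imperfecta, 24 were tested, 19 positive and 5 negative (median 0.20). Amelx was the only one past the adjusted p, where 0.0629% of all genes tested passed. At an unadjusted p below 0.05, 7 were higher and 2 lower (6.44% of all genes tested in either direction). Dlx3, a homeobox transcription factor, was at 0.72 (edgeR adjusted p = 0.569). The 7 genes described above had a median of 0.00083.

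Genes on the opposite strand overlapped 3 of the 7: AV064505 at Mmp20 (1.83 CPM in ELA organs and 1.56 CPM in control organs), 2410002F23Rik at Acp4 (46.6 CPM in ELA organs and 46.0 CPM in control organs) and K230010J24Rik at Fam83h (4.20 CPM in ELA organs and 4.66 CPM in control organs). A further gene at Acp4, Gm28496, was at 0.0275 CPM in ELA organs and 0.108 CPM in control organs. These overlaps are of whole gene spans, and exons were not compared. How strand was treated in counting is not given in the sources used here. Reads from bases in exons of both genes of a pair could therefore not be told apart (likewise for Amelx and the overlapping Arhgap6). The number of such reads was not measured.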

How the data were processed

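For each of the 9 libraries of polyA-captured RNA, the authors deposited unnormalized counts of reads per Ensembl gene, which a sequencing company had made. The submitters' processing notes name CASAVA, HISAT and HISAT2. How reads were counted, with which strand setting and on which genome build, is not given in the sources used here. Of 54532 gene identifiers, 54495 were in GENCODE M21 and 98.3% of those had the same coordinates, as had all 7 genes, so coordinates are given on GRCm38. All columns were matched to a mouse by title, and 0 were left unassigned. Libraries of a group differed by 21.0 to 136.9 chi-square units per degree of freedom, so none was a repeat of another.

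ELA was compared with control with edgeR 4.0.16 in R 4.3.3 (filterByExpr with a count minimum of 10, TMM, robust glmQLFit, glmQLFTest), and p-values were adjusted over 15909 genes by Benjamini-Hochberg (threshold 0.05). As alternatives, DESeq2 (the tool named in the study, here in version 1.42.0) and limma 3.58.1 (voom) were run, and an adjusted p that DESeq2 gave as missing stayed missing. Other alternatives were library totals or DESeq2 size factors as scaling, no filter, group medians for the ratios, leaving out each mouse, and counts summed over title numbers. Leaving out all mice of a title number and Ambn alone as substrate were added after seeing the data. Log2 CPM used a prior count of 2. Ratios and correlations were tested by exact permutation with scipy 1.17.1. The fits were tested on simulated data.

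The genes, the lists and the ratios were chosen with earlier results of these data known. All 7 genes were named, and from each list the 4 tested genes with the smallest edgeR p.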

Additional observations from a re-analysis of the deposited data

How the results depend on the processing

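None of the 7 genes passed the adjusted p in any of 19 alternative settings (0 of 133 values, lowest adjusted p 0.58), and Acp4 and Wdr72 kept their direction in all of them. The number of genes called across the table was 10, and it was 138 in DESeq2, 38 without a filter on low counts, 4 with library totals alone, 3 with counts summed over title numbers and 0 to 25 when 1 mouse was left out (25 without ELA replicate 2, and 2 or fewer without any other mouse). The cause was not tested.

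Directions turned as follows, as log2 differences. With library totals alone, Klk4 was at -0.066 and Fam20c at -0.028. In limma-voom, Klk4 was at -0.0074, Klk8 at -0.12 and Klk10 at -0.73. Without the mice titled c-202, Klk4 was at -0.052 and Fam20c at -0.050. Without those titled t-203, Mmp20 was at -0.042, Fam20c at -0.0055, Fam83h at 0.23, the Klk4 to Mmp20 ratio at 0.17 and the Fam20a to Fam20c ratio at 0.13. Without those titled c-204, Fam20a was at 0.13 and the Fam20a to Fam20c ratio at 0.030. Without those titled t-205, Klk4 was at -0.071. With group medians in place of means, the Klk4 to Mmp20 ratio was at 0.042.

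Leaving out 1 mouse gave -0.0066 to 0.18 for Mmp20, -0.084 to 0.064 for Klk4, -0.62 to 0.18 for Fam20a, -0.040 to 0.13 for Fam20c, -0.21 to 0.00031 for Fam83h, -0.32 to 0.027 for Fjx1, -0.34 to 0.061 for Pkdcc, -0.059 to 0.039 for Pomk, -0.23 to 0.28 for Klk8, -1.19 to 0.40 for Klk10, -0.0071 to 0.24 for Dmxl1, -0.16 to 0.0070 for the Klk4 to Mmp20 ratio and -0.58 to 0.033 for the Fam20a to Fam20c ratio.

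With 1 mouse left out, the log2 difference of the substrate ratios was 0.74 to 0.86 to Mmp20 and 0.79 to 0.96 to Klk4. The groups did not overlap with all mice, so the exact p there (0.0286 to 0.0357) is the smallest those sizes allow and says nothing of stability. To Mmp20 the log2 difference was 0.74, 0.70, 0.85 and 0.85 without the mice titled c-202, t-203, c-204 and t-205, and 0.79 with summed counts. To Klk4 it was 0.87, 0.54, 0.86 and 1.08 in the same order, and 0.81 with summed counts. With so few units the exact test cannot reach 0.05 there (p 0.0571 to 0.333). No paired analysis was possible because the labels give the groups no shared replicate numbers.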
